A study of Mus musculus with 6 samples.

Results

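The miRNAs described here are miR-33 and miR-185, each with the mature strand from the 5′ side of its hairpin (5p) and the strand from the 3′ side (3p). They were the 4 entries named mmu-miR-33-5p, mmu-miR-33-3p, mmu-miR-185-5p and mmu-miR-185-3p, found by exact name among 1039 miRNAs in the table, 762 of them named as mouse miRNAs. All 4 had reads in every library, and all 4 were among the 548 miRNAs that passed the filter on low values, a mean above 1 RPM in either group, where RPM are reads scaled so that the miRNA reads of a library sum to 1000000.

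Liver miRNA was sequenced in wild type ICR mice, an outbred stock, at an age of 30 weeks. Every mouse had been on a high-fat diet, for 12 weeks before any treatment started and afterwards as well. The J group then received JTXK granule, a Chinese herbal formula, by gavage for 8 weeks, and the M group received sterile water over the same time. Each group had 3 libraries, 1 per mouse, chosen by the study from larger groups, and no mice on a standard diet were analysed here. The comparison addresses whether the formula was accompanied by other levels of these miRNAs in the liver of mice on a high-fat diet.

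Cells make cholesterol and take it up under the control of SREBP proteins, transcription factors that are released from the membrane when sterols run low. The gene of SREBP2, Srebf2, carries miR-33 in an intron, and miR-33 is known in liver for repressing Abca1, the transporter that passes cholesterol to HDL, and genes of fatty acid oxidation. miR-185 is known for repressing SREBP2 itself, the LDL receptor and the HDL receptor SR-BI.

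The mature sequences are shown because their seeds, bases 2 to 8 from the 5′ end and here in capitals, decide which messenger RNAs a miRNA can pair with. RefSeq (GRCm38.p6) held 3 of the 4 sequences.
mmu-miR-33-5p: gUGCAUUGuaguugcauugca
mmu-miR-33-3p: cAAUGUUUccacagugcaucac
mmu-miR-185-3p: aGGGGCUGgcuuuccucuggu

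The 3 seeds differ from each other. Among 1679 mature mouse sequences in the same reference, no other miRNA had the seed UGCAUUG or AAUGUUU. The seed GGGGCUG was shared with 1 other, mmu-miR-7048-5p, which had no entry in the table. The G and C content was 42.9% in mmu-miR-33-5p, 45.5% in mmu-miR-33-3p and 61.9% in mmu-miR-185-3p.

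The miR-33 hairpin is printed with both mature strands in capitals, to show that the 2 entries called 33-5p and 33-3p come from 1 transcript.
Mir33: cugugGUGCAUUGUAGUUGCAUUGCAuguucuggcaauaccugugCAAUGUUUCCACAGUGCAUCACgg

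In GRCm38 coordinates (GENCODE M21) this hairpin of 69 bases lies on the plus strand at chr15:82198122-82198190, with mmu-miR-33-5p at chr15:82198127-82198147 and mmu-miR-33-3p at chr15:82198167-82198188. It was intronic in 3 of 3 transcripts of Srebf2 that span it. In the transcript Srebf2-201 it sat in intron 16 of 18, 335 bases after the upstream exon and 1444 bases before the next. Mir185 lies on the minus strand at chr16:18327401-18327465, with mmu-miR-185-3p at chr16:18327405-18327425, and was intronic in 10 of 10 spanning transcripts of Tango2. Neither host gene held another annotated miRNA gene. The table itself gives no coordinates, and the submitters' processing notes name the older build mm9, so these positions are those of the annotation.

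The libraries held 2626353 to 4314134 miRNA reads, so 1 read was worth 0.232 to 0.381 RPM. Between the libraries, Pearson correlations of log2(RPM + 1) over the tested miRNAs were 0.973 to 0.989, except for M group replicate 1, whose correlations with the others were 0.931 to 0.941. That library scored 24.9 on the first principal component (56.5% of the variance), against -6.26 to -3.46 for the others, and the results on the 4 strands are given with and without it. Its sample label also has another prefix than the labels of the other M libraries, and the labels do not say what the prefix means. The liver label was matched by mmu-miR-122-5p, the miRNA that defines hepatocytes, which ranked 1 of 762 by mean RPM. Of the 548 tested miRNAs, 29 (5.29%) passed the study's thresholds in limma, which are a log2 fold change of more than 0.3 in size with p below 0.05 before adjustment. Of these, 8 were higher and 21 lower in the J group, and the split was 17 to 13 after median-of-ratios scaling and 17 to 12 after quantile normalization. No adjusted p (limma, Benjamini-Hochberg over all 548) was under 0.05, the smallest being 0.42. At an unadjusted p under 0.05 limma counted 29, DESeq2 put 36 past the thresholds with 2 at an adjusted p under 0.05, and edgeR put 45 past them.

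The 4 strands differed widely in level. mmu-miR-185-5p ranked 73 of 762 mouse miRNAs by mean RPM. The other 3 strands were scarce, with mmu-miR-33-5p at rank 288, mmu-miR-33-3p at rank 336 and mmu-miR-185-3p at rank 402. RPM divide the reads of a strand by all miRNA reads of the library, with no division by the length of the strand. How much of a strand a read had to cover is not given in the sources used here. Unequal capture and amplification of different sequences were not tested.

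**Figure D1:**
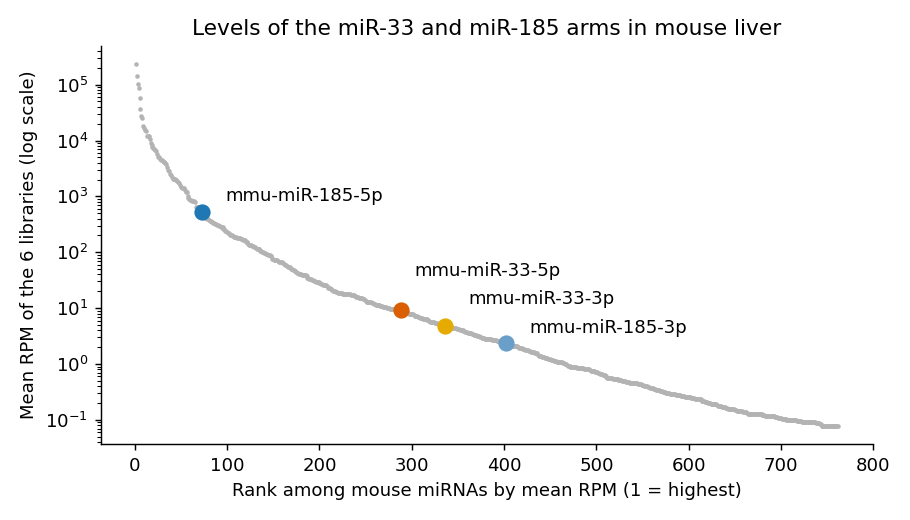
Mean RPM over the 6 libraries (log scale) against rank for the 762 mouse miRNAs, in grey, with the 4 strands of miR-33 and miR-185 in colour. mmu-miR-185-5p sits at rank 73, and the 3 scarce strands lie between rank 288 and rank 402.

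None of the 4 strands passed the thresholds in the comparison of the J group with the M group, where the background over all tested miRNAs was 5.29% in either direction and 3.83% for lower levels. An unmoderated linear model on RPM, 1 of the alternatives, put mmu-miR-185-5p and mmu-miR-33-3p past them as lower. All 4 log2 fold changes were below 0, from -0.53 to -0.40, and so were 323 of the 548 tested (58.9%), whose median was -0.13. Values of the 2 groups were fully apart in 2 of the 4, mmu-miR-185-5p and mmu-miR-33-3p, both lower in J, against a background of 9.31% of tested miRNAs that were lower without overlap. The strands of 1 hairpin share a transcript and all 4 share the same 6 libraries, so these are not 4 separate observations. In RNA from whole liver, fewer cells of a type and less of a miRNA per cell cannot be told apart.

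**Figure D2:**
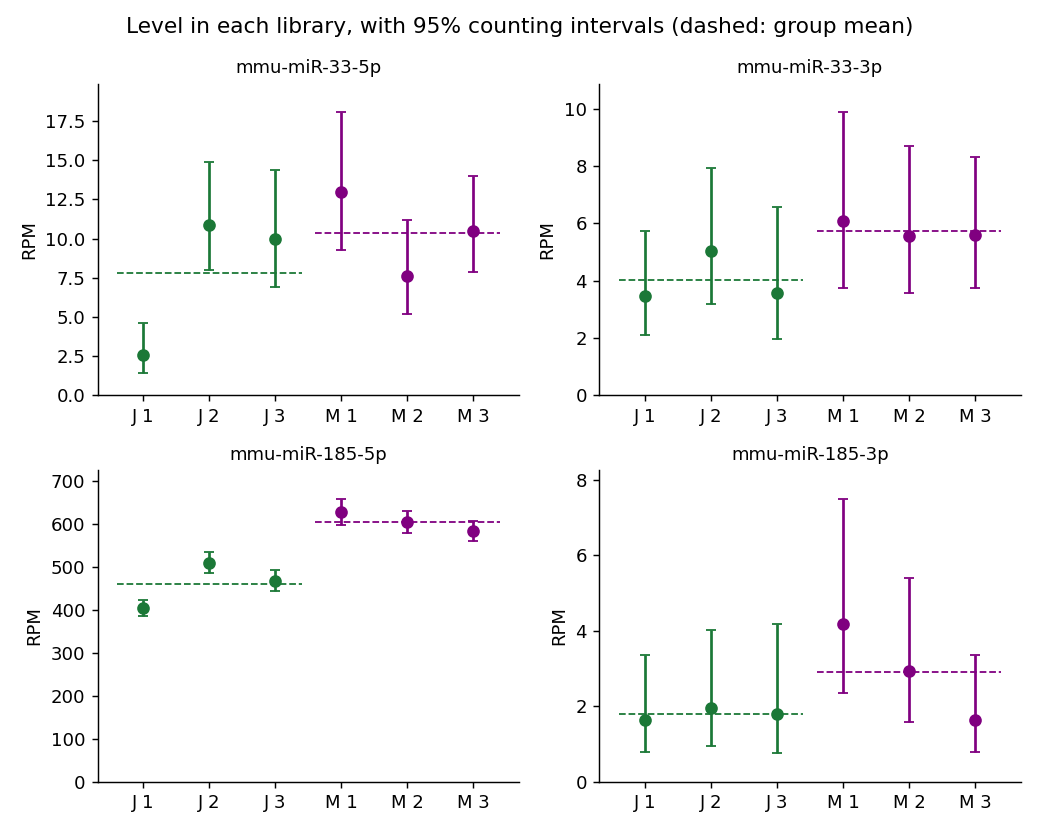
RPM of each strand in each library, with points for the values, bars for the 95% Wilson interval of the read count and a dashed line at the mean of each group (n = 3). The intervals are narrow for mmu-miR-185-5p, where J libraries lie between 404 and 510.3 RPM and M libraries between 583.1 and 627.5 RPM, and wide for the other strands.

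mmu-miR-185-5p, the strand of miR-185 that makes up nearly all of its reads, stood at 404, 510.3 and 468.1 RPM in the treated mice (J group replicates 1 to 3). The water-treated mice (M group replicates 1 to 3) had 627.5, 604.5 and 583.1 RPM. All 3 J libraries were below all 3 M libraries. The J mean of 461 ± 53.5 RPM stood against an M mean of 605 ± 22.2 RPM (SD, n = 3 each), so the J mean was 76.2% of the M mean. The log2 fold change on log2(RPM + 1) was -0.40 (SE 0.18, 95% interval -0.83 to 0.03), with an unadjusted p of 0.0637 and an adjusted p of 0.71 (limma, Benjamini-Hochberg). The difference was larger than the spread within either group, yet its p missed the threshold of 0.05. In an unmoderated linear model on RPM it had a log2 fold change of -0.39 and was past the thresholds, while edgeR (-0.29) and DESeq2 (-0.29) did not put it past them.

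mmu-miR-185-5p was the strand with the most reads. It had 1313 to 2505 reads per library, 0.0404% to 0.0627% of all miRNA reads. The 95% Wilson interval was 487 to 534 RPM in the highest J library and 561 to 606 RPM in the lowest M library, and these did not overlap. Such intervals cover counting error only, since the reads carry no molecular identifiers. The coefficient of variation between mice was 11.6% in the J group and 3.67% in the M group, against 2.50% and 2.22% from counting alone, so most of the spread in the J group lay between mice.

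The separation of mmu-miR-185-5p depended on the scale. After median-of-ratios scaling its groups still did not overlap, with 457 to 507 in J libraries and 552 to 609 in M libraries, where 6.39% of tested miRNAs were lower without overlap. Per 1000 reads of mmu-miR-122-5p it had 1.94, 2.19 and 2.03 reads with JTXK and 2.69, 2.30 and 2.50 with water, again apart, against 4.94% of the other tested miRNAs. After quantile normalization the groups overlapped and the log2 fold change was -0.03. Without M group replicate 1 the log2 fold change was -0.37, and leaving out each library in turn gave -0.48 to -0.31.

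mmu-miR-185-3p, the opposite strand, was near the lower limit of what these libraries can count. J group replicates 1 to 3 had 1.62, 1.95 and 1.78 RPM, and M group replicates 1 to 3 had 4.19, 2.93 and 1.63 RPM. These are 5 to 7 reads per J library and 7 to 11 reads per M library. For comparison, 3 reads, about the upper 95% limit for a count of 0, would be 0.695 to 1.14 RPM. The groups overlapped, because M group replicate 3 fell inside the range of the J libraries. The log2 fold change was -0.44 (SE 0.36, 95% interval -1.28 to 0.40, adjusted p = 0.71, limma). Without M group replicate 1, the library with the highest value, it was -0.21. The coefficient of variation between mice was 9.28% in the J group and 43.9% in the M group, where counting alone gives 40.1% and 33.2%, so counting error was a large part of each value.

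mmu-miR-33-5p, the strand of miR-33 known for acting on Abca1, stood at 2.55, 10.9 and 9.98 RPM in the 3 J libraries, in replicate order. The 3 M libraries had 12.95, 7.62 and 10.5 RPM. The groups overlapped, and J group replicate 1 was the only library far from the rest. That library held 11 reads, with a Wilson interval of 1.42 to 4.57 RPM, and the next lowest library, M group replicate 2, had an interval of 5.20 to 11.2 RPM. The J mean was 7.81 ± 4.57 RPM and the M mean 10.35 ± 2.66 RPM (SD, n = 3 each). The log2 fold change was -0.53 (SE 0.51, 95% interval -1.72 to 0.67), with an adjusted p of 0.76 (limma). Without J group replicate 1 it was 0.04, so the sign rested on that mouse, and without M group replicate 1 it was -0.36.

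mmu-miR-33-3p, the opposite strand, stood at 3.48, 5.02 and 3.56 RPM in the 3 J libraries and at 6.09, 5.57 and 5.59 RPM in the 3 M libraries. Every J library was below every M library. The J mean of 4.02 ± 0.869 RPM was 69.95% of the M mean of 5.75 ± 0.297 RPM (SD, n = 3 each). The log2 fold change was -0.44 (SE 0.29, 95% interval -1.11 to 0.23), with an unadjusted p of 0.166 and an adjusted p of 0.71 (limma). The values rest on 10 to 18 reads per J library and 16 to 24 per M library. The Wilson intervals of the highest J library (3.18 to 7.94 RPM) and the lowest M library (3.57 to 8.70 RPM) overlapped, so the gap between these libraries was within counting error. An unmoderated linear model on RPM put the strand past the thresholds (-0.52), and edgeR and DESeq2 did not. The groups stayed apart after median-of-ratios scaling, but overlapped after quantile normalization and per read of mmu-miR-122-5p. Without M group replicate 1 the log2 fold change was -0.40.

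In all 4 strands the highest value was in M group replicate 1 and the lowest was in J group replicate 1. For mmu-miR-185-3p that lowest value was level with M group replicate 3, at 7 reads in each.

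**Figure D3:**
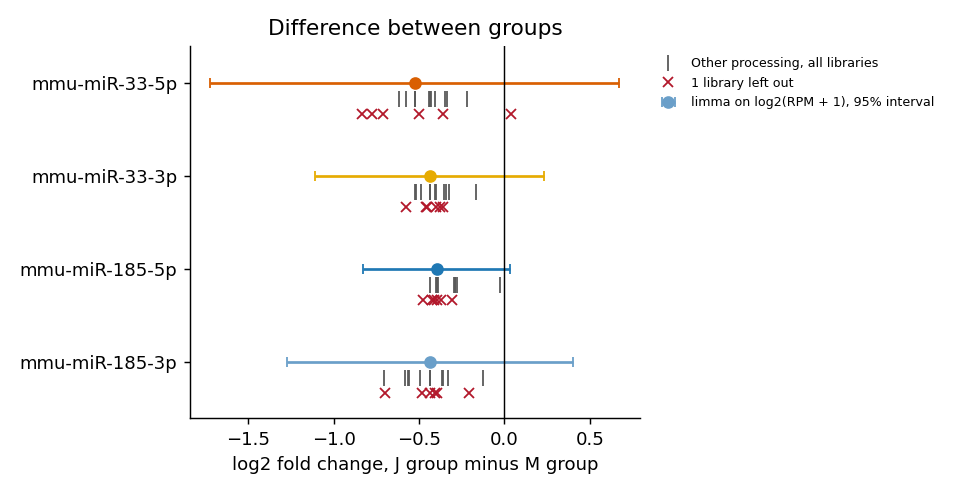
log2 fold change of each strand, J group minus M group, with points and bars for limma on log2(RPM + 1) and its 95% interval, ticks for other processing of all 6 libraries and crosses for fits with 1 library left out. All 4 intervals include 0, and mmu-miR-33-5p is the strand whose crosses reach past 0, at 0.04.

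A ratio of the strands within a library does not depend on how the library is scaled. For miR-33 the 5p to 3p ratio was 0.733, 2.17 and 2.80 over the J mice and 2.12, 1.37 and 1.87 over the M mice. The 5p strand was thus the more frequent in every library but J group replicate 1, and its share of miR-33 reads ranged from 42.3% to 73.7%. On the log2 scale the ratio was 0.72 ± 1.03 in the J group and 0.82 ± 0.33 in the M group (SD, n = 3 each), a difference of -0.10 that was smaller than the pooled SD of 0.76. The difference was 0.04 without M group replicate 1, and leaving out each library in turn gave -0.48 (without J group replicate 3) to 0.48 (without J group replicate 1).

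For miR-185 the same ratio was 249, 261 and 263 over the J mice and 150, 206 and 358 over the M mice. The 5p strand made up 99.3% to 99.7% of the miR-185 reads in every library. The log2 ratio was 8.01 ± 0.04 in the J group and 7.80 ± 0.64 in the M group (SD, n = 3 each), a difference of 0.21 within the pooled SD of 0.45, and -0.08 without M group replicate 1. The comparison set was 119 miRNAs with reads on both strands in all libraries and both strands past the filter on low values. It leaves out miRNAs with a strand too scarce for that filter or with strands not named as a pair. The median ratio in the set was 1.60. Of the 119, 57 had a higher ratio than miR-33 and 10 had a higher ratio than miR-185. Within this set miR-33 was close to the middle and miR-185 was among the most one-sided towards 5p.

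**Figure D4:**
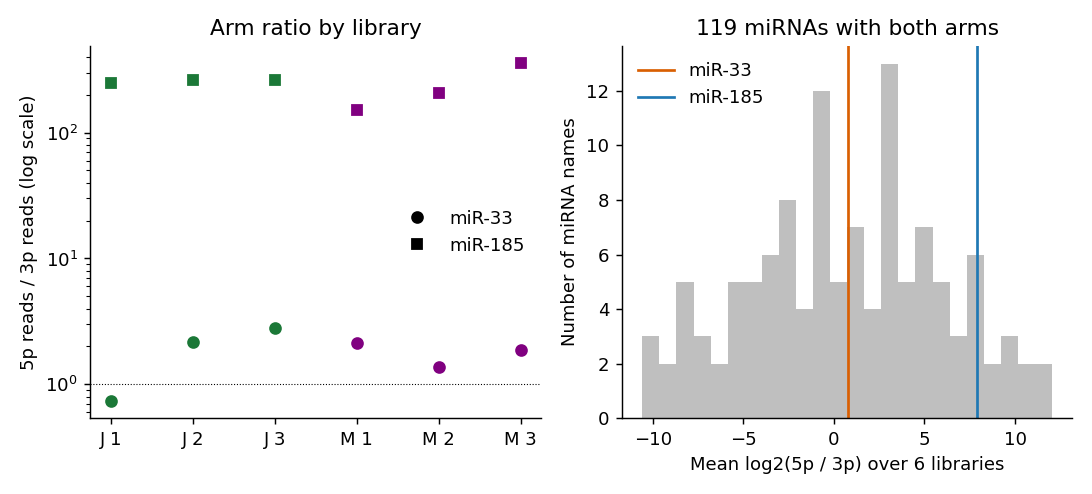
Left, the ratio of 5p to 3p reads (log scale) in each library for miR-33 (circles) and miR-185 (squares), with J in green and M in purple. Right, the mean log2 ratio over the 6 libraries of 119 miRNAs with both strands read in all libraries and past the filter on low values. Lines mark miR-33, near the middle, and miR-185, above all but 10.

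The miRNAs whose pattern was most like that of each strand were taken by Pearson's r of log2(RPM + 1) over the 6 libraries, among 305 or 306 mouse miRNAs with at least 10 reads in every library. The points share their libraries and depth, and both groups enter, so the r are descriptions. Over the 5 libraries without M group replicate 1 the r named below for these similar miRNAs were 0.865 to 0.992. For mmu-miR-185-5p they were mmu-miR-186-5p (r = 0.954), mmu-miR-33-3p (0.950) and mmu-let-7d-5p (0.937). Both mmu-miR-186-5p and mmu-let-7d-5p fell past the thresholds, with log2 fold changes of -0.96 (SE 0.22) and -0.64 (SE 0.17) and adjusted p of 0.42 and 0.43 (limma), and after quantile normalization mmu-let-7d-5p had -0.45 and did not pass. In DESeq2 mmu-miR-186-5p had -0.86 with an adjusted p of 0.0497, 1 of the 2 under 0.05 there, and over the other alternatives its adjusted p was 0.249 to 0.826. For mmu-miR-33-3p they were mmu-miR-185-5p (0.950), mmu-miR-148b-5p (0.937) and mmu-miR-140-5p (0.920).

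The pattern of mmu-miR-33-5p was closest to mmu-miR-423-3p (0.966), mmu-miR-141-3p (0.956) and mmu-miR-3074-5p (0.905), none of which passed the thresholds. That of mmu-miR-185-3p was closest to mmu-miR-6240 (0.977), mmu-miR-2137 (0.977) and mmu-miR-322-5p (0.951), at only 5 to 11 reads of the strand itself per library. Of these, mmu-miR-2137 had 207 RPM in M group replicate 1 and at most 68.6 RPM in any other library. The 2 strands of miR-33 were less alike, with r = 0.644, than mmu-miR-33-3p and mmu-miR-185-5p from different chromosomes. The 2 strands of miR-185 had r = 0.702, and mmu-miR-33-5p with mmu-miR-185-5p had r = 0.733. Over the 5 libraries without M group replicate 1 these r were 0.559 for the strands of miR-33, 0.933 for mmu-miR-33-3p with mmu-miR-185-5p, 0.595 for the strands of miR-185 and 0.671 for both 5p strands.

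Other miRNAs known to act on SREBP, Abca1, the LDL receptor or SR-BI, or to be switched on by SREBP, were taken from a list of 26. In the table and tested were 25, of which 22 were below 0 and 3 above, with a median log2 fold change of -0.46 against -0.13 over all tested miRNAs. Among these 25, mmu-miR-130b-3p, mmu-miR-301b-3p and mmu-miR-224-5p passed the filter on low values only through the M group, which favours values below 0. Of the 22 with a mean above 1 RPM in both groups 19 were below 0, with a median of -0.41, against 56.6% and a median of -0.08 over the 465 such miRNAs. The entries share the same libraries, and some belong to the same cluster, so they are not separate observations. Without M group replicate 1 the median of the list was -0.18, against -0.09 over all miRNAs tested there. After quantile normalization it was -0.20, against 0.05 over all tested miRNAs. Past the thresholds were 2, both lower, beside the background of 3.83%, and 3 were lower without overlap, beside 9.31%. The count of 2 was not stable, ranging from 0 to 4 over 19 alternatives, with 0 in the unmoderated linear model and without J group replicate 2, and 4 with no filter, without J group replicate 3 and without M group replicate 2. It was 1 without M group replicate 1. No entry was higher past the thresholds over all libraries, and 1 was so without M group replicate 1 (mmu-miR-10b-5p), without J group replicate 2 (mmu-miR-21a-5p) and without M group replicate 3 (mmu-miR-144-3p). mmu-miR-145a-5p, a repressor of Abca1 that is also a marker of stromal cells, stood at 4456, 3763 and 4590 RPM with JTXK and 5427, 5300.0 and 6964 RPM with water, all J below all M. It fell by 0.46 on the log2 scale (SE 0.17, adjusted p = 0.71, limma), and it no longer passed after median-of-ratios scaling (-0.35), quantile normalization (-0.32), in edgeR (-0.35), in DESeq2 (-0.35), scaled to mmu-miR-122-5p (-0.34) or in the unmoderated linear model (-0.47). Nor did it pass without J group replicate 2 (-0.37) or M group replicate 3 (-0.33).

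mmu-miR-96-5p, which with its neighbours mmu-miR-182-5p and mmu-miR-183-5p belongs to a cluster that SREBP2 is known to switch on, stood at 142, 271 and 605 RPM with JTXK. With water it had 1533, 864 and 493 RPM, so the groups overlapped at J group replicate 3 and M group replicate 3. It fell by 1.60 on the log2 scale (SE 0.59, adjusted p = 0.71, limma). Without M group replicate 1 it had -1.19 and did not pass, nor did it pass without J group replicate 1 (-1.10), J group replicate 2 (-1.56) or M group replicate 2 (-1.60), nor in the unmoderated linear model (-1.51). mmu-miR-182-5p and mmu-miR-183-5p had log2 fold changes of -1.42 and -1.45 and did not pass. mmu-miR-122-5p (-0.12) and mmu-miR-27b-3p (-0.16) were the other entries that were lower without overlap, at sizes under the threshold.

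**Figure D5:**
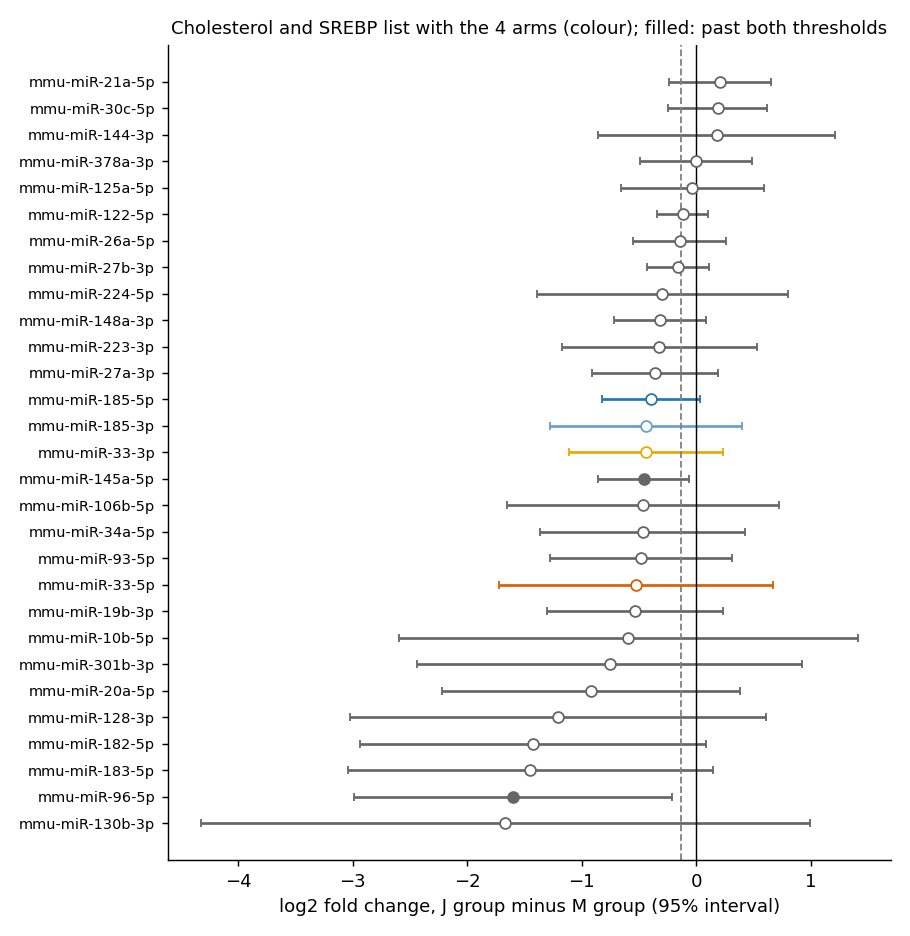
log2 fold change, J group minus M group, with its 95% interval for the 4 strands (colour) and the 25 tested miRNAs of the cholesterol and SREBP list (grey). Filled points passed both thresholds, which 2 of the list and none of the 4 strands did, and the dashed line is the median of all tested miRNAs, -0.13.

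Marker miRNAs of other cells stood as follows beside these results, with 3.83% of all tested miRNAs past the thresholds as lower and 58.9% below 0. The summed level of 1 of the 5 other cell types was apart between the groups. This was the list of 7 miRNAs of blood-derived immune cells, all detected in every library, which summed to 988 to 1370.0 RPM per J library and 1768 to 6579 RPM per M library, or 1768 to 2306 RPM without M group replicate 1. All 7 were below 0 and 2 passed as lower, mmu-miR-342-3p and mmu-miR-146a-5p, with and without that library. Taken singly, only these 2 were apart between the groups. The groups overlapped in mmu-miR-142a-3p, mmu-miR-142a-5p, mmu-miR-223-3p, mmu-miR-150-5p and mmu-miR-155-5p, so the list did not separate as a whole. Of the 5 stromal miRNAs 4 were matched by name, all 4 below 0, and their sums overlapped, at 12582 to 16890 RPM per J library and 16765 to 25242 RPM per M library (16765 to 20214 RPM without M group replicate 1). Past the thresholds as lower were 3 of these 4, mmu-miR-199a-5p, mmu-miR-214-3p (just inside the p threshold) and mmu-miR-145a-5p, whose call was lost in the settings given above, and without M group replicate 1 mmu-miR-214-3p did not pass.

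The sums of the remaining lists overlapped between the groups and none of their entries passed. The 5 bile duct miRNAs, all 5 below 0, summed to 950.1 to 2379 RPM in J and 1203 to 4298 RPM in M (1203 to 2341 RPM without M group replicate 1). In each group the libraries had the same order in this sum as in mmu-miR-96-5p, and the part of bile duct cells in the fall of that miRNA was not tested. For red blood cells 2 of 3 were matched (4286 to 6232 RPM in J, 2534 to 9724 RPM in M), and for endothelium 1 of 2 (4166 to 6718 RPM in J, 4486 to 5579 RPM in M). The hepatocyte sum was 328849 to 377864 RPM in J and 332971 to 379599 RPM in M. The part of these cells in the lower values of miR-33 and miR-185 was not tested.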

How the data were processed

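Small RNA libraries were made from liver RNA of 6 mice with the NEBNext small RNA kit and sequenced on an Illumina HiSeq. After read filtering, the authors matched unique reads to Rfam and miRBase and deposited RPM, in which a miRNA's reads are divided by the total miRNA reads of that library, separately for each library. The aligner and the rule on mismatches are not given in the sources used here. Each RPM column sums to 1000000, and 100% of values were whole multiples of 1 read within a tolerance of 0.01, which gave the reads per library (2626353 to 4314134). 0 columns were left unused.

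Groups followed the labels (3 J, 3 M). Both were compared with limma 3.58.1 in R 4.3.3 (two-sided, lmFit and eBayes with trend) on log2(RPM + 1), keeping miRNAs whose mean exceeded 1 RPM in either group, with Benjamini-Hochberg adjustment over all 548. Fold changes on this scale understate the change of low miRNAs. An exact permutation of 3 against 3 cannot reach 0.05. Wilson intervals were at 95%. Alternatives were quantile normalization, median-of-ratios scaling, RPM computed after removal of the most abundant miRNA, a pseudocount of 0.1 or 10 RPM, no filter or one at 10 RPM, a linear model on RPM with no moderation, mouse miRNAs alone, a replicate block, each library left out, and, on recovered reads, edgeR 4.0.16 and DESeq2 1.42.0. Scaling to mmu-miR-122-5p, and the counts over miRNAs above 1 RPM in both groups, were chosen after seeing the data.

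The members and lists were chosen with earlier results of these data known. The text names the 4 strands, list entries past the thresholds or without overlap, and the 3 most similar miRNAs of each. mmu-miR-182-5p, mmu-miR-183-5p, other list entries and the marker miRNAs named singly were added after their values were seen. The fits were tested on simulated data. Python 3.11.15, numpy 2.4.6, pandas 2.3.3, scipy 1.17.1 and matplotlib 3.10.9 were used.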

Additional observations from a re-analysis of the deposited data

How the results depend on the processing

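The log2 fold changes of mmu-miR-33-3p, mmu-miR-185-5p and mmu-miR-185-3p stayed below 0 under every alternative run (18, 19 and 18), and that of mmu-miR-33-5p under 18 of 19. Leaving out each library gave -0.834 to 0.037 for mmu-miR-33-5p, where 0.037 is without J group replicate 1, with -0.58 to -0.36, -0.48 to -0.31 and -0.70 to -0.21 for the others. Over alternatives with all libraries the values were -0.62 to -0.22 for mmu-miR-33-5p, -0.52 to -0.17 for mmu-miR-33-3p, -0.43 to -0.03 for mmu-miR-185-5p and -0.71 to -0.13 for mmu-miR-185-3p, and for the 3 scarce strands the value nearest 0 was that with 10 RPM added, which shrinks low values. An unmoderated linear model on RPM put mmu-miR-33-3p (-0.52) and mmu-miR-185-5p (-0.39) past the thresholds, with adjusted p of 0.74 and 0.57, and no other alternative did so for any of the 4. Adjusted p over the alternatives ranged from 0.637 to 0.914 for mmu-miR-33-3p and from 0.562 to 0.959 for mmu-miR-185-5p. The count past the thresholds was 45 with edgeR and 21 to 46 with a library left out, the 46 without M group replicate 2. With all miRNAs scaled to mmu-miR-122-5p it was 31, with 18 higher and 13 lower. The median of all tested miRNAs moved from -0.13 to -0.03 after median-of-ratios scaling, -0.03 scaled to mmu-miR-122-5p and 0.05 after quantile normalization. Without M group replicate 1 it was -0.09. Adding 10 RPM to each strand turned the miR-185 strand difference to -0.26, since the 3p strand lies below 10 RPM, and leaving out a library gave -0.08 to 0.55. The list median was -0.41 over miRNAs above 1 RPM in both groups, -0.20 after quantile normalization and -0.53 to -0.18 with a library left out, the -0.18 without M group replicate 1. mmu-miR-423-3p was above 0 after quantile normalization (0.171) and without J group replicate 1 (leave-one-out range -0.323 to 0.112), as was mmu-miR-3074-5p (0.069, range -0.246 to 0.081). mmu-miR-141-3p was above 0 after median-of-ratios scaling (0.013), quantile normalization (0.078), edgeR (0.016), DESeq2 (0.024), scaling to mmu-miR-122-5p (0.024) and without J group replicate 1 (range -0.189 to 0.084). Except where named, the cause of these moves was not tested. The replicate numbers did not pair the mice (r of deviations 0.045, 0.058 and -0.006), and with the replicate block 27 miRNAs passed and the 4 strands kept -0.53, -0.44, -0.40 and -0.44. The block also ended the call of mmu-miR-96-5p at the same fold (limma, an unadjusted p of 0.0666 and an adjusted p of 0.72, against 0.0296 and 0.71 without the block). The 3 scarce strands rest on 5 to 45 reads per library, and for mmu-miR-33-5p the spread between mice exceeded counting error in both groups (58.6% against 21.7% in J, 25.7% against 17.2% in M).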
